A study of Mus musculus with 20 samples.

Results

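The replication-dependent histone genes are the clustered genes that supply linker histone H1 and core histones H2A, H2B, H3 and H4 to newly copied DNA. They were taken from the deposited table by their symbols, which begin H2ac, H2bc, H3c, H4c or H1f1 to H1f5, or have the older Hist form, with a level above 0 in 5 or more libraries. All 63 symbols of these forms met that rule, of 45777 symbols in the table: 5 genes for H1, 18 for H2A, 17 for H2B, 12 for H3 and 11 for H4. The rule used no treatment difference.

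The libraries came from CD8+ T cells sorted out of tumours on day 4 after treatment, 5 libraries in each of 4 groups named Control, Pembrolizumab, ABL503 and Combination. ABL503 is a bispecific antibody against PD-L1 and 4-1BB, Pembrolizumab an antibody against PD-1, and Combination is both. Mice of all groups, Control included, were C57BL/6 animals of the genotype hPD-1/hPD-L1/h4-1BB, and all carried tumours of MC38, a mouse colon carcinoma line that here overexpressed human PD-L1. Treatment began at a mean tumour volume of 150 to 200 mm3, and the labels give neither the age of the mice, the dose, what Control received, nor whether each library is 1 mouse, so each p-value reflects spread among libraries that may be technical only. The table has 1 value per gene and library, read from the values as FPKM, fragments scaled by gene length and library size, with column sums of 575918 to 654333. Sequencing depth is not given. Every one of the 7 CD8 T cell marker genes looked at was detected, and their summed level ran from 3535 to 6263 FPKM over the 20 libraries.

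Replication-dependent histone genes are switched on as a cell enters S phase, through NPAT and the locus body around it, and their messages are destroyed when DNA synthesis ends. Most of these messages carry no poly(A) tail: they end just after a short stem-loop, which the protein SLBP binds and at which the U7 particle directs cleavage. Replication-independent variants such as H3.3 and H2A.Z come from ordinary polyadenylated genes and are made in resting cells too. The SMART-Seq v4 kit named in the labels primes cDNA synthesis from poly(A), so a histone level below counts the messages that such a library captures, whatever share of the total they are. In bulk samples, fewer cells making a message and less of it per cell cannot be told apart.

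The stem-loop was searched for in the GENCODE M21 transcripts of each gene, because it marks a message as one of this family. It was found in 41 of 63 genes. The search covers only annotated transcripts and a fixed pattern of letters. Many of the other 22 genes have short transcripts, such as H4c12 (312 bases), H2bc13 (381) and H2ac13 (393), which may end before the stem-loop. Some have longer ones without a match, such as H2bc4 (1156 bases), Hist1h2br (2197) and H2bc21 (2620). Not finding the stem-loop therefore does not mean that the gene lacks it. The sequences are shown for genes whose levels the results turn on, with 5 transcript bases on either side and the stem-loop in capitals, as DNA, 5′ to 3′ on the gene's own strand. Positions are on GRCm38: H2ac18 at chr3:96246027-96246052 on the plus strand, H2ac20 at chr3:96220413-96220438 on the minus strand, H4c14 at chr3:96262934-96262959 on the minus strand, H1f4 at chr13:23621777-23621802 on the minus strand, H4c9 at chr13:22040961-22040986 on the minus strand and H4c11 at chr13:21735432-21735457 on the plus strand.
H2ac18: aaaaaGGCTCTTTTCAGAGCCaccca
H2ac20: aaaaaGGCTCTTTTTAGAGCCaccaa
H1f4: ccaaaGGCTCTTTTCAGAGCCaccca
H4c14: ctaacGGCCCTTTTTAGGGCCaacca
H4c9: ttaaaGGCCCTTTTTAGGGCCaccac
H4c11: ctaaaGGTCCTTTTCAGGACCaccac
The form in H2ac18 and H1f4 was the commonest, held by 24 genes: 3 of H1, 9 of H2A, 7 of H2B and 5 of H3. No H4 gene held it. The 10 H4 genes with a stem-loop had other letters in the stem, 5 of them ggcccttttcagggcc. Of the 41 genes, 22 end within 100 bases of it and 19 run on for more than 100 bases, such as H4c14 (1257 bases) and H1f4 (1153 bases).

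Most of the genes lie in the large cluster of chromosome 13, and 10 lie on chromosome 3; the 53 on chromosome 13 include Hist1h2al, an annotated pseudogene away from the cluster. Their sequences are close to one another. Over windows of 75 bases, the median gene had 46.1% of its windows also in the transcript of another gene, and 28 genes shared at least 50%. H2ac18 and H2ac19, which face away from each other on chromosome 3 and encode the same form of H2A, go further: all windows of H2ac19 (100%) also occur in H2ac18, and 88.7% of those of H2ac18 in H2ac19. Their levels kept a ratio of 1.048 to 1.088 in every library, so the files do not separate them. The table lists both and the counts below include both; the main counts are also given with H2ac19 left out. Overlaps add to this uncertainty. A gene on the opposite strand overlaps 21 of the 63 and a gene on the same strand overlaps 6; whether counting used strand is not given in the sources used here, so reads of such partners cannot be told apart. H2ac18 overlaps the predicted gene model Gm20634 and H1f4 overlaps the H2B gene H2bc6.

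The likeness of H2ac18 and H2ac19 extends into their promoters, which is why these are printed. RefSeq gives H2ac18 the window chr3:96245247-96245546 on the plus strand and H2ac19 the window chr3:96240325-96240624 on the minus strand, both of GRCm38.p6. Capitals mark CCAAT and TATAAA on either strand.
H2ac18: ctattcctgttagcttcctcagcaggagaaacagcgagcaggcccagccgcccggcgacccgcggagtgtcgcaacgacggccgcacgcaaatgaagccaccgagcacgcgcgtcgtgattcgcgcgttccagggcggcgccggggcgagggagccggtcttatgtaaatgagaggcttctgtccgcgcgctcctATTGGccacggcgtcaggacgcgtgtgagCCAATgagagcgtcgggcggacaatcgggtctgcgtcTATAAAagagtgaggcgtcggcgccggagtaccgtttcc
H2ac19: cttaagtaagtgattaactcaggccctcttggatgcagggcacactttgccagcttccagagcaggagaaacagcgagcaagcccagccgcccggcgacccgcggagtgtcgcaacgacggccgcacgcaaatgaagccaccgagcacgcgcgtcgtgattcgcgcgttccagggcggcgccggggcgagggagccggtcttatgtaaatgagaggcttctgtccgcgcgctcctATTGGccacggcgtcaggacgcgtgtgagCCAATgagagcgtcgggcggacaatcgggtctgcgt
The windows share an unbroken run of 219 of 300 bases. That run ends at the edge of the H2ac19 window, just before the place of TATAAA in H2ac18. The H2ac19 window lies wholly before the GENCODE start of that gene at 96240276, so whether TATAAA follows there is not shown. The table of promoters matched 49 of the 63 genes, with 50 windows. CCAAT, searched on both strands, was in 90.0% of these windows and in 37.4% of all 32851 promoters of the same length. TATAAA was in 60.0% against 13.6%, and the octamer ATTTGCAT in 26.0% against 1.74%. These letters are a description of the windows and say nothing of what binds them.

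In level, a few chromosome 13 genes dominated. Hist1h2ap (280.2 FPKM, mean of 20 libraries), H2bc4 (167.5 FPKM) and Hist1h2ao (163.0 FPKM), genes for H2A, H2B and H2A, made up 39.5% of the summed histone level. Another 25 genes averaged between 10 and 100 FPKM, 30 between 1 and 10 FPKM, and 5 under 1 FPKM. The lowest, H2ac1, was above 0 in 6 libraries, just inside the rule, followed by H2bc21 in 19 and H2ac21 in 20. No gene of these symbol forms fell outside the rule. Filtering for at least 1 FPKM in at least 5 libraries left 59 histone genes to test among 11794 genes. H2ac1, H2ac21, H2bc1 and H2bc21 were not tested. As a whole the 63 genes took 0.281% ± 0.0379 of the column sum in Control (SD, n = 5, as for every group mean below) and 0.215% ± 0.0787 in Combination. Between them lay Pembrolizumab (0.242% ± 0.0871) and ABL503 (0.255% ± 0.0261).

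A pair of libraries stood apart before any comparison. Pembrolizumab replicate 2 and Combination replicate 2 had summed histone levels of 2567 and 2258 FPKM, where the other libraries of their groups ran from 1121 to 1474 and from 1037 to 1244 FPKM. The chromosome 13 genes carried this. Hist1h2ap stood at 633.8 FPKM in Pembrolizumab replicate 2 and 538.0 in Combination replicate 2, against at most 216.3 and 248.5 in the other libraries of those groups. The same pair had the highest sums in their groups over 27 genes of S phase and DNA replication (965.7 and 1034 FPKM) and over 22 genes of G2 and mitosis (465.5 and 505.2 FPKM). Both carry replicate number 2, and nothing else in the labels marks them. They were kept, and values without them are given beside some of the histone results they move. The shares of the column sum above and the medians over all histone genes and by class below include them.

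**Figure D1:**
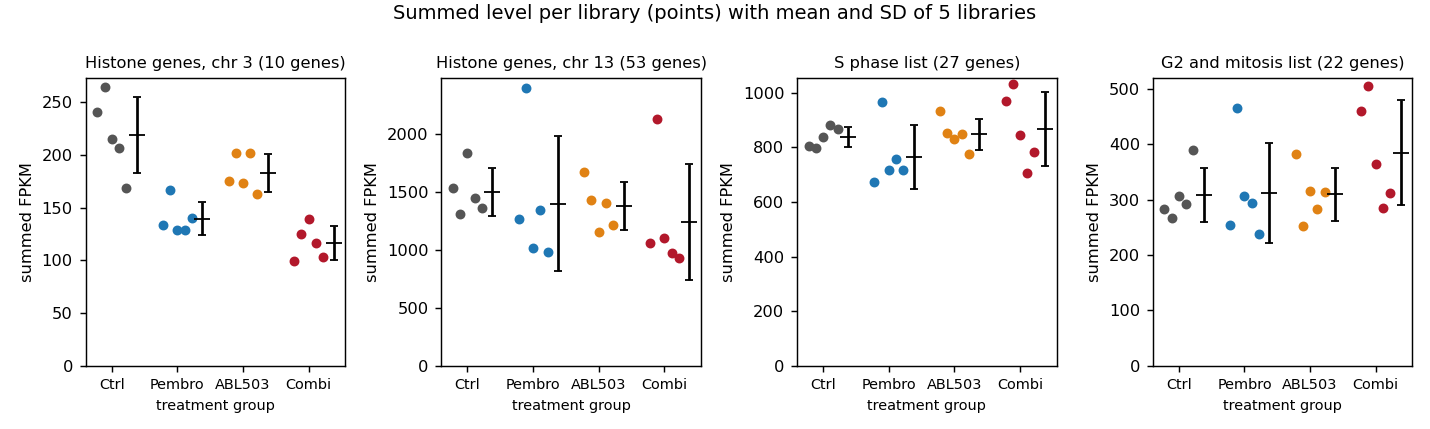
Summed FPKM per library (points) in the 4 treatment groups, with mean and SD of 5 libraries, for histone genes on chromosome 3, histone genes on chromosome 13, and the lists for S phase and for G2 and mitosis. Replicate 2 of Pembrolizumab and of Combination stand highest in their groups in the chromosome 13, S phase and mitosis panels, while the chromosome 3 sums of Combination (99.23 to 139.0) lie wholly below those of Control (168.2 to 264.4).

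After Combination, 18 of the 59 tested histone genes fell against Control and none rose. They came from every class: H1f3 and H1f4 of H1, H2ac18, H2ac19 and H2ac20 of H2A, H2bc9 and H2bc18 of H2B, H3c1, H3c6, H3c11 and H3c13 of H3, and H4c1, H4c3, H4c11, H4c12, H4c14, Hist1h4m and Hist1h4n of H4. Each change is a log2 difference computed after adding 1 to FPKM, so the fold of a gene with low levels is understated. The threshold was an adjusted p under 0.05 in limma, by the method of Benjamini and Hochberg over all 11794 genes. Of all genes tested, 6.24% fell by that rule and 12.6% changed in either direction, beside 30.5% of the histone genes that fell (17 of 58, or 29.3%, with H2ac19 left out). The median histone gene was lower by a log2 difference of -0.49, with 58 of 59 below 0. The median of all genes was -0.04, with 54.2% below 0. All 5 Combination libraries lay below all 5 Control libraries for 10 histone genes, and for 4.43% of all genes. Without Combination replicate 2 the count of falls was 24, and over all libraries left out in turn it ran from 12 to 24. Calls over all genes, in either direction, ran from 958 to 1659 in these fits. The calls of H1f4, H2ac18, H2ac19, H2ac20, H2bc9, H4c12, H4c14 and Hist1h4m held whichever of the 10 libraries was left out. Of the other calls, those of H3c11, H3c13 and H4c3 ended in 7 of 10 such fits, H3c1 in 5, H2bc18 and Hist1h4n in 4, H3c6 and H4c1 in 2, and H1f3 and H4c11 in 1.

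Among H2A genes, H2ac18 had the smallest p. Its levels were 95.54, 106.3, 82.61, 87.35 and 64.99 FPKM in Control and 41.31, 47.17, 59.36, 48.17 and 41.97 FPKM in Combination. The groups did not overlap, and Combination replicate 2 was not high for this gene. The log2 difference was -0.86 (SE 0.12, adjusted p = 0.000103, limma), and the inseparable H2ac19 gave -0.84 (adjusted p = 0.000108). H2ac20, a neighbour that encodes another H2A form, read 22.59, 16.62, 17.49, 12.28 and 13.05 FPKM in Control and 6.687, 9.818, 7.997, 8.187 and 7.165 FPKM in Combination. Again no Combination library reached the lowest Control library, with a difference of -0.94 (SE 0.23, adjusted p = 0.0108). The abundant chromosome 13 pair did not pass: Hist1h2ap averaged 286.6 ± 55.5 FPKM in Control and 266.8 ± 157 in Combination, and Hist1h2ao gave a difference of -0.19 (SE 0.33, adjusted p = 0.741). Both values rest on Combination replicate 2. Without it Hist1h2ap averaged 198.9 ± 48.2 FPKM in 4 libraries and its log2 difference went from -0.24 to -0.53 (SE 0.30, adjusted p = 0.285), and that of Hist1h2ao to -0.49 (SE 0.30, adjusted p = 0.333), still short of the threshold.

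H4 genes held the largest share of falls, 7 of 11, with a median difference of -0.80. H4c14, the H4 gene of chromosome 3, read 6.267, 5.958, 5.418, 1.631 and 1.805 FPKM in Control. In Combination it read 0.4233, 0.9074, 1.345, 0.6039 and 0.9823 FPKM. Control itself split into 3 high and 2 low libraries, all above every Combination library, and the difference of -1.38 (SE 0.33, adjusted p = 0.0106) was the widest of any histone gene. H4c14 shares no window with another transcript. Hist1h4m read 18.06, 17.17, 20.97, 13.99 and 20.84 FPKM in Control and 7.365, 13.17, 10.04, 6.119 and 8.646 in Combination, without overlap (-0.96, SE 0.20, adjusted p = 0.00377). It shares 89.0% of its windows, mostly with Hist1h4n, which gave -0.94 (SE 0.28, adjusted p = 0.0292, or 0.0773 without Combination replicate 1). H4c3 gave -0.80 (SE 0.26) with an adjusted p of 0.0454, which was 0.121 without Control replicate 1. H4c4, the H4 gene with the highest mean (42.01 FPKM), did not pass (-0.59, SE 0.39, adjusted p = 0.326), and its Control libraries ran from 25.59 to 87.59 FPKM.

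**Figure D2:**
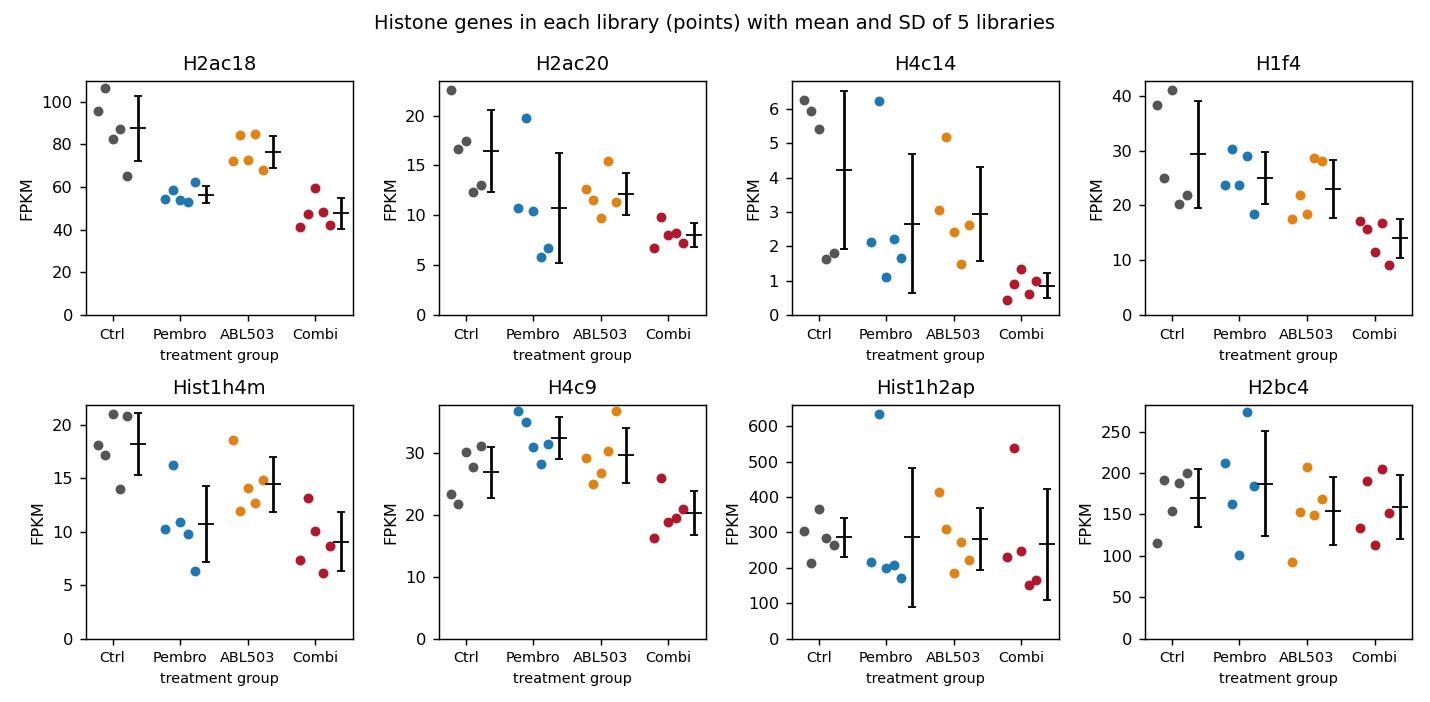
FPKM of 8 histone genes in each library (points) of the 4 treatment groups, with mean and SD of 5 libraries; each panel has its own scale from 0. H2ac18, H2ac20, H4c14, H1f4 and Hist1h4m are lower in every Combination library than in any Control library, while Hist1h2ap and H2bc4 overlap across groups and Hist1h2ap shows the high replicate 2 of Pembrolizumab (633.8) and of Combination (538.0).

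Of the linker histones, which bind DNA between nucleosomes, 2 of 5 passed and all 5 were below 0. H1f4, for H1.4, read 38.36, 24.92, 41.1, 20.26 and 21.89 FPKM in Control and 17.09, 15.77, 11.54, 16.69 and 9.021 FPKM in Combination. The groups did not overlap, and the difference was -0.99 (SE 0.21, adjusted p = 0.00492). H1f3, for H1.3, fell by 0.80 (SE 0.21, adjusted p = 0.0172) on the log2 scale, with an adjusted p of 0.0517 without Combination replicate 5. H1f2, for H1.2 and the most abundant of the class at a mean of 65.16 FPKM, had a difference of -0.18 (SE 0.12, adjusted p = 0.342). Its Combination libraries (56.28 to 71.39) reached the Control range (66.43 to 92.02) through Combination replicate 4 alone. H1f1 (-0.71, SE 0.31, adjusted p = 0.144) and H1f5 (-0.50, SE 0.23, adjusted p = 0.16) did not pass either, with unadjusted p of 0.0355 and 0.042.

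H3 genes gave 4 falls of 12. H3c1, for H3.1, fell by 0.84 (SE 0.24, adjusted p = 0.025), H3c11 by 0.86 (adjusted p = 0.0302), H3c13 by 0.95 (adjusted p = 0.0308) and H3c6 by 0.54 (adjusted p = 0.0238). In H3c1 and H3c11, Combination replicate 2 read 14.38 and 6.429 FPKM, where the other Combination libraries ended at 7.428 and 2.916. Without Control replicate 2 the adjusted p was 0.0696 for H3c1, 0.0819 for H3c11 and 0.0805 for H3c13, and without Control replicate 4 it was 0.062 for H3c6. H2B genes moved least by count, with 2 falls of 15 and a median of -0.27: H2bc9 (-0.66, SE 0.17, adjusted p = 0.0169) and H2bc18 (-0.76, SE 0.21, adjusted p = 0.0231, or 0.0587 without Control replicate 3). The most abundant H2B genes did not pass, with differences of -0.10 (SE 0.24) for H2bc4 and -0.27 (SE 0.20) for H2bc8. H2bc13 alone was above 0, at 0.02.

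**Figure D3:**
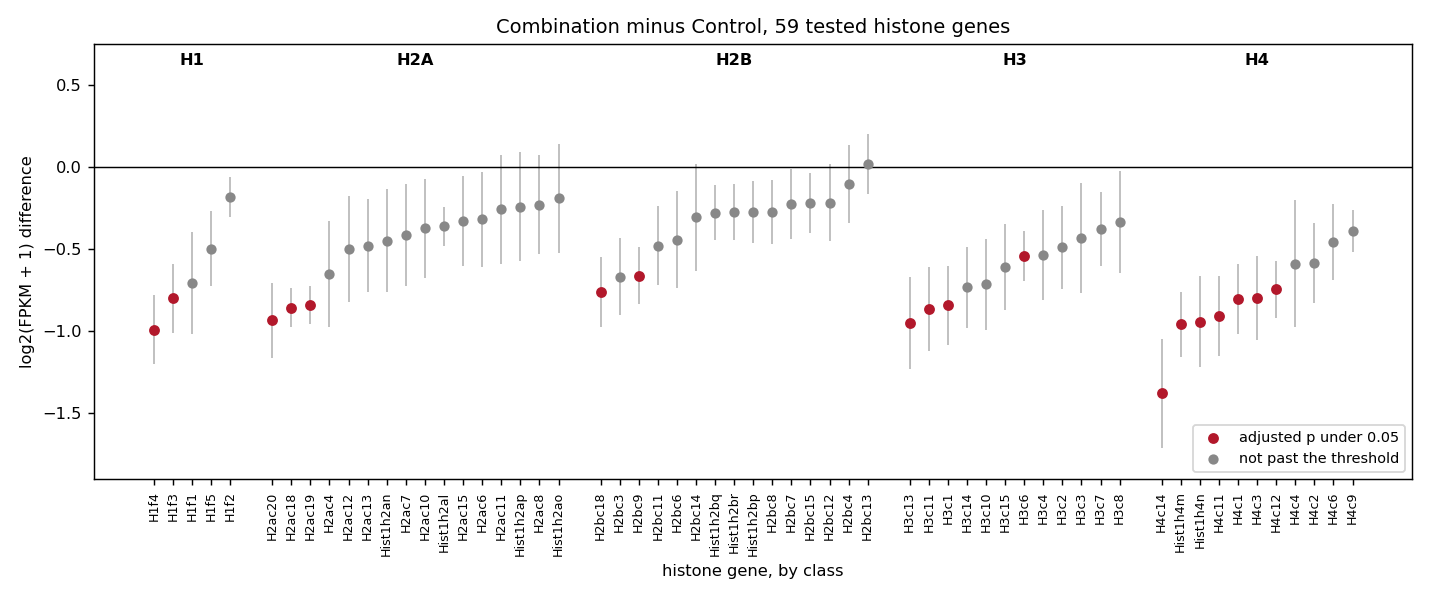
Difference in log2(FPKM + 1), Combination minus Control, for the 59 tested histone genes grouped by class (points; bars are 1 standard error). Red points are the 18 genes with an adjusted p under 0.05, all below 0; H4 has 7 of 11 and H2B has 2 of 15.

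The falls were also counted by position, level and transcript form. Of the 8 tested genes on chromosome 3, 6 fell after Combination and the median difference was -0.85. Of 51 on chromosome 13, 12 fell and the median was -0.45. The chromosome 3 count takes in both H2ac18 and H2ac19, which the files do not separate. Summed, the 10 chromosome 3 genes stood at 219.0 ± 36.4 FPKM in Control and 116.7 ± 16.2 in Combination, with Pembrolizumab at 139.5 ± 15.8 and ABL503 at 183.0 ± 17.8 between them. H2ac18 and H2ac19 made up most of these sums. The chromosome 13 sums were 1500 ± 208 FPKM in Control and 1241 ± 503 in Combination, and there the Combination range (933.7 to 2133) spanned that of Control through replicate 2 alone. The other 4 Combination libraries averaged 1018 ± 78.9 FPKM (933.7 to 1105), all below every Control library (1309 to 1840). Without that replicate 7 of 8 genes on chromosome 3 fell, with a median of -0.89, and 17 of 51 on chromosome 13, with a median of -0.64. No test of the difference between clusters was made. Among genes averaging at least 10 FPKM 9 of 28 fell, and below that 9 of 31. Of genes sharing under 25% of their windows 6 of 16 fell, against 12 of 43 that share more. Genes whose transcript runs over 100 bases past the stem-loop gave 8 falls of 19, and those ending sooner 6 of 22. Those with no stem-loop in the annotated transcript gave 4 of 18.

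After Pembrolizumab alone, 3 histone genes fell against Control, H2ac18, H2ac19 and Hist1h4m, and none rose. That is 5.08% of the 59, beside 2.78% of all genes that fell and 5.55% that changed either way. With H2ac19 left out it is 2 of 58, or 3.45%, near the share of all genes. H2ac18 read 54.08, 58.32, 53.76, 52.87 and 62.39 FPKM, every library below the lowest of Control, with a difference of -0.61 (SE 0.12, adjusted p = 0.00523). Hist1h4m read 10.24, 16.2, 10.88, 9.763 and 6.359 FPKM; replicate 2 overlapped Control, and the difference was -0.75 (SE 0.20, adjusted p = 0.0292). That call ended without any 1 of 6 libraries, with an adjusted p of up to 0.0818 (without Pembrolizumab replicate 5), while those of H2ac18 and H2ac19 held. The median histone gene was at -0.29, with 56 of 59 below 0. All genes had a median of -0.03, with 54.5% below 0. H3 and chromosome 3 genes had the lowest medians (-0.54 and -0.63). Without Pembrolizumab replicate 2 the count was 6. With 1 library left out, calls over all genes ran from 383 to 707. Pembrolizumab and Combination are each compared with the same Control libraries, so a low or high Control library enters both.

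After ABL503 alone, no histone gene passed against Control in limma, and 1 had an unadjusted p under 0.05: H1f2, at -0.38 (SE 0.12, adjusted p = 0.22). By that test 0.619% of all genes changed and 0.585% were higher, and 1292 of 11794 had an unadjusted p under 0.05. H2ac18 read 72.13, 84.13, 72.59, 84.62 and 68.04 FPKM, within the Control range, and its difference was -0.18 (SE 0.12, adjusted p = 0.60). The median histone gene was at -0.19, with 51 of 59 below 0. All genes had a median of -0.008, with 51.4% below 0.

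Combination was also set against each antibody alone. Against ABL503, 4 histone genes were lower, or 6.78%, beside 2.24% of all genes that were lower and 4.53% that differed: H2ac18 (-0.68, SE 0.12, adjusted p = 0.00304), H2ac19 (-0.66, adjusted p = 0.0032), H4c12 (-0.68, SE 0.17, adjusted p = 0.0282) and H4c9 (-0.53, SE 0.13, adjusted p = 0.0229). H2ac18 did not overlap between these groups. With H2ac19 left out the count is 3 of 58, or 5.17%. It ran from 2 to 7 with 1 library left out: 2 without ABL503 replicate 4 or Combination replicate 1, and 7 without Combination replicate 2. Calls over all genes ran from 271 to 752 in these fits. The H4c12 call ended in 7 of 10 fits that left out a library (up to 0.0717, without ABL503 replicate 2) and that of H4c9 in 3 (up to 0.0622, without ABL503 replicate 5). Against Pembrolizumab, 1 histone gene was lower, beside 0.0933% of all genes that were lower and 0.161% that differed. This was H4c9, with 36.76, 34.99, 30.94, 28.17 and 31.4 FPKM in Pembrolizumab, 29.19, 25.07, 26.73, 30.34 and 36.78 in ABL503, 16.19, 26.01, 18.86, 19.5 and 20.92 in Combination, and 23.41, 21.82, 30.22, 27.75 and 31.17 in Control. Combination lay wholly below Pembrolizumab, while 1 of its libraries reached into the ABL503 and Control ranges. The difference from Pembrolizumab was -0.66 (SE 0.13, adjusted p = 0.0375, or 0.124 without Pembrolizumab replicate 1), and that from Control was -0.39 (SE 0.13, adjusted p = 0.0504). H2ac18 differed from Pembrolizumab by -0.25 (SE 0.12, adjusted p = 0.374).

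Whether the change from adding Pembrolizumab depended on ABL503 was tested as an interaction: the difference of Combination from ABL503, less that of Pembrolizumab from Control. No histone gene passed in limma, where 0.203% of all genes did. An unadjusted p under 0.05 was reached by 1210 of all 11794 genes and by 2 of the 59 histone genes. H4c9 came nearest, at -0.80 (SE 0.18, adjusted p = 0.0667). ABL503 and Pembrolizumab did not differ in any histone gene by the same test, with 1.28% of all genes called. At an unadjusted p under 0.05 were 1596 of all 11794 genes and 3 of the 59 histone genes. The nearest was H2ac19, 0.44 higher in ABL503 (SE 0.12, adjusted p = 0.0703). Combination had the lowest group mean for 48 of the 59 genes and Control the highest for 49, as a description of the 4 means. How often all tested genes take this order was not counted. Genes that share sequence and Control libraries are not independent of each other.

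Genes of the cell cycle were read beside the histones. Of 26 tested genes of S phase and DNA replication, none was higher and 1 was lower (3.85%) in Combination than in Control, with a median of 0.23. Of all genes, 6.34% were higher and 6.24% lower. The S phase gene that fell was the licensing factor Cdt1 (-0.68, SE 0.20, adjusted p = 0.0262, or 0.0771 without Control replicate 1). Of 22 genes of G2 and mitosis, 1 was higher (4.55%), under the share of all genes, with a median of 0.33. This was the kinetochore gene Cenpf (0.60, SE 0.16, adjusted p = 0.0196, or 0.062 without Combination replicate 2). Pcna, the replication clamp, gave -0.13 (SE 0.08, adjusted p = 0.251), Mcm2 of the replicative helicase 0.12 (SE 0.18), Rrm2, a subunit of ribonucleotide reductase, 0.39 (SE 0.24), and the proliferation marker Mki67 0.17 (SE 0.17). The medians of the histone genes and of these lists thus lay on opposite sides of 0 in Combination. Both list medians include Combination replicate 2, and medians without it are not given. Without it the S phase sums of Combination ran from 705.5 to 972.1 FPKM, around those of Control (796.8 to 882.7). The G2 and mitosis sums ran from 284.7 to 460.0 FPKM, against 266.6 to 390.8 in Control. The difference between lists was not tested.

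**Figure D4:**
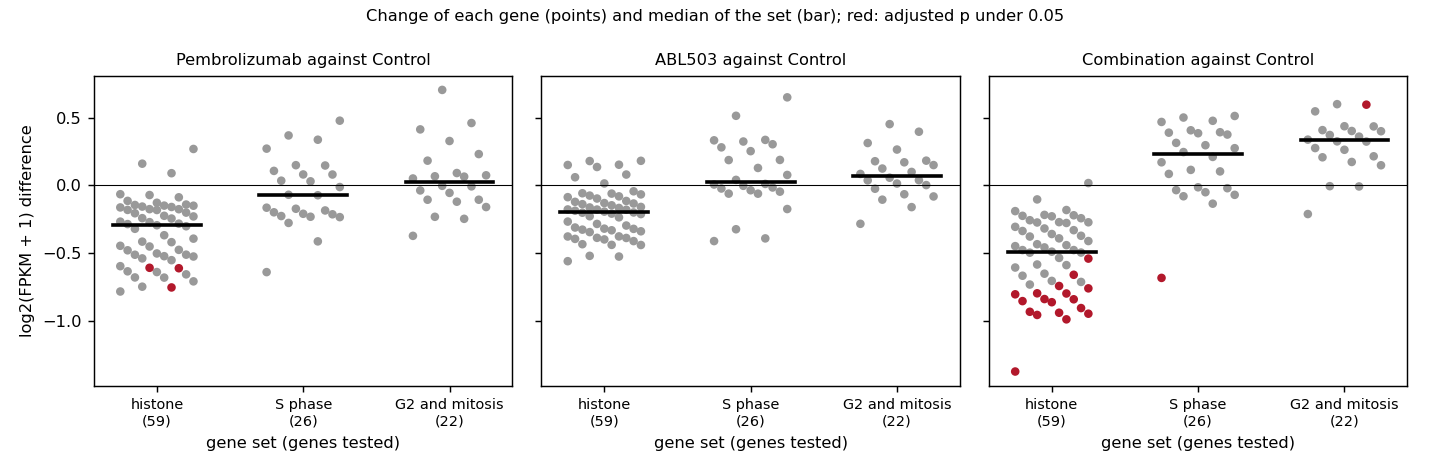
Difference in log2(FPKM + 1) against Control for each tested gene (points) and the median of each set (bar), for Pembrolizumab, ABL503 and Combination. In Combination the histone median is -0.49, the S phase median 0.23 and the G2 and mitosis median 0.33; red points passed an adjusted p of 0.05.

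Of 15 tested factors that transcribe or process histone messages, 1 fell in Combination, or 6.67%, near the 6.24% of all genes. This was Slbp, the stem-loop binding protein, from 231.9 ± 16.4 FPKM in Control to 195.0 ± 13.5 (-0.25, SE 0.07, adjusted p = 0.0255, or 0.0708 without Combination replicate 4). It was also lower than in ABL503 (-0.28, adjusted p = 0.025, or 0.0734 without ABL503 replicate 2). Npat gave -0.02 (SE 0.12, adjusted p = 0.916) and Casp8ap2, a further component of the histone locus body, 0.30 (SE 0.18, adjusted p = 0.30). In Pembrolizumab 1 of the 15 fell (6.67%, beside 2.78% of all genes), Ccne2, a cyclin of S phase entry (-0.62, SE 0.16, adjusted p = 0.0301, or 0.0825 without Control replicate 4). Of 18 chaperones and assembly factors, 3 fell in Combination, or 16.7%: Nasp, which holds H3 and H4 in reserve (-0.42, SE 0.09, adjusted p = 0.00377), Asf1a, which hands H3 and H4 to the assembly factors (-0.45, SE 0.11, adjusted p = 0.011), and Daxx, which loads H3.3 (-0.44, SE 0.14, adjusted p = 0.0455, or 0.107 without Control replicate 1). Chaf1a and Chaf1b, subunits of the assembly factor CAF-1, gave 0.20 (SE 0.23) and 0.15 (SE 0.24), and Asf1b 0.33 (SE 0.24). Nasp was also lower than in ABL503 (-0.39, adjusted p = 0.0132). In Pembrolizumab 1 of the 18 fell (5.56%), Rbbp7 (-0.34, SE 0.10, adjusted p = 0.046, or 0.112 without Control replicate 1). No gene of these lists passed in ABL503 against Control.

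Of the 11 replication-independent variants, H3f3b, H2afz and H3f3a had a higher mean than any replication-dependent gene per length, and the others did not. H3f3b, for H3.3, stood at 3254 ± 216 FPKM in Control, above the sum of all 63 replication-dependent genes there (1719 ± 209). It fell to 2643 ± 123 in Pembrolizumab (-0.30, SE 0.07, adjusted p = 0.021, or 0.0589 without Control replicate 4) and to 2471 ± 203 in Combination (-0.40, SE 0.07, adjusted p = 0.00166). H3f3a, which encodes the same protein, gave -0.07 (SE 0.06, adjusted p = 0.506) in Combination. Of 9 variants tested, 2 fell in Combination (22.2%, beside 6.24% of all genes) and none rose. These were H3f3b and H2afj (-0.46, SE 0.14, adjusted p = 0.0344, or 0.0909 without Combination replicate 5). H2afz, for H2A.Z, gave -0.19 against Control (SE 0.09, adjusted p = 0.175) and was lower than in ABL503 (-0.39, SE 0.09, adjusted p = 0.0176, or 0.0579 without ABL503 replicate 2). H2afx, for H2A.X, gave -0.34 (SE 0.13, adjusted p = 0.0963) and H1f0, the H1 of resting cells, 0.03 (SE 0.22). Macroh2a1, for macroH2A1, was higher than in ABL503 (0.45, SE 0.11, adjusted p = 0.0243, or 0.0638 without ABL503 replicate 2).

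Markers of other cell types had their lowest sums in Combination, with overlap between groups. Their 31 genes, of B, myeloid, dendritic, stromal, epithelial and other cells, summed to 13.85 to 26.69 FPKM in Combination, against 19.06 to 116.8 in Control, 23.33 to 63.73 in Pembrolizumab and 22.13 to 82.9 in ABL503. The top of the Control range was replicate 3 alone. The other Control libraries ran from 19.06 to 34.45 FPKM, and the medians were 32.73 in Control and 14.41 in Combination. Of the 31, 17 were under 1 FPKM in every library and 8 were tested. In Combination against Control, 6 of the 8 were below 0 and 1 passed, as a fall (12.5%). Of all genes, 6.24% fell and 12.6% changed in either direction. Epcam, an epithelial marker, was lower in Combination than in Control (-0.86, SE 0.26, adjusted p = 0.0339, or 0.10 without Control replicate 1) and Xcr1, a dendritic cell receptor, was higher in Pembrolizumab (0.61, SE 0.14, adjusted p = 0.0173, or 0.0502 without Pembrolizumab replicate 5). Cd8a was higher in Combination (0.43, SE 0.11, adjusted p = 0.0134). Epcam was also lower in Combination than in ABL503 (-1.17, SE 0.26, adjusted p = 0.0128). The part of these genes in the histone differences was not tested.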

How the data were processed

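The submitters' processing notes name HISAT2, StringTie and the build GRCm38 (mm10), without saying how each was run; versions, annotation release and strand setting are not given in the sources used here. The deposited values are FPKM as far as the values show: the table names no unit. Libraries used SMART-Seq v4, per the labels' protocols. Depth is unknown, so no counting intervals are given.

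All 20 libraries entered 1 model. A gene was tested if 5 or more libraries reached 1 FPKM, and log2(FPKM + 1) was fitted with limma 3.58.1 in R 4.3.3: 1 mean per group, variances moderated with an intensity trend, 16 residual degrees of freedom, two-sided tests, Benjamini-Hochberg adjustment over 11794 genes within each of 7 comparisons. The fit was tested on simulated data. Summaries and plots used pandas 2.3.3, matplotlib 3.10.9 and Python 3.11.15. Positions, transcripts and overlaps came from GENCODE M21, and promoters from RefSeq.

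The histone genes and the lists beside them were chosen with earlier results of these data known. Named genes are all histone genes that passed in any comparison, the 2 with the highest mean per class, the 3 with the smallest p in each comparison with Control, the 3 nearest the detection rule, a fixed panel, and passing members of the other lists. H1f1, H1f5, H2bc13 and the markers of other cells are named for their place in a count. Alternatives were a pseudocount of 0.1, a filter of above 0 in 5 libraries, no filter, quantile normalization, equal column sums, array weights, only the groups compared, the replicate number as block, and leaving out each library. Leaving out the pair with the lowest array weights was added after the data were seen.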

Additional observations from a re-analysis of the deposited data

Results flagged for a closer look

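In groups of 5 libraries, a highest or lowest value was picked out where its gap to the next value exceeded 0.71 of the group's range (Dixon's test). Of 188 groups (29 histone genes and 18 panel genes in 4 groups each) 24 were picked out, where chance gives about 1 in 20; the genes and libraries are not independent of each other.

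Of these 24, 13 were the high values of replicate 2 in Pembrolizumab or Combination. In Pembrolizumab replicate 2 they were Hist1h2ap at 633.8 FPKM (next 216.3), Hist1h2ao at 347.3 (next 132.2), H4c4 at 91.98 (next 33.81), H2bc18 at 13.16 (next 7.116), H4c14 at 6.225 (next 2.218) and the chaperone Asf1b at 67.37 (next 30.92). In Combination replicate 2 they were Hist1h2ap at 538.0 FPKM (next 248.5), Hist1h2ao at 326.6 (next 152.3), H4c4 at 55.5 (next 29.12), H3c1 at 14.38 (next 7.428), H3c11 at 6.429 (next 2.916), H4c12 at 3.141 (next 1.796) and Hist1h2bq at 7.95 (next 4.669).

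Other genes stood apart in other libraries. H1f2 read 92.02 FPKM in Control replicate 3 (next 70.29). The low values were H3c6 at 4.634 FPKM in Combination replicate 3 (next 5.601) and H4c1 at 2.216 FPKM in ABL503 replicate 3 (next 4.009). The remaining values were of genes near 0. H2ac1 read 0.002274 FPKM in Control replicate 1, 0.01793 in ABL503 replicate 2 and 0.009603 in Combination replicate 3. H2bc21 read 0.6796 FPKM in Control replicate 5 and 0.4291 in Combination replicate 5, and H2ac21 read 1.591 FPKM in Control replicate 1. The linker variant H1f10 read 0.318 FPKM in ABL503 replicate 2 and 0.3882 in Combination replicate 3.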

How the results depend on the processing

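No histone gene or other named gene that passed changed direction in any alternative, and 12 of the 26 histone calls passed in all of them. Under quantile normalization and with equal column sums, 58 and 59 of 59 histone genes were below 0 in Combination against Control, and no scaling moved the median of all genes by more than 0.1. With no filter, which adds genes near 0 to the adjustment, 8 histone genes passed in Combination against Control (939 of all genes) and 2 against ABL503 (271 of all genes), and counts over all genes were 321 for Pembrolizumab and 42 for ABL503 against Control, 67 for ABL503 against Pembrolizumab and 6 for the interaction. The single histone call of Combination against Pembrolizumab was 0 with no filter, with the filter of above 0 in 5 libraries, with only the groups compared and with the replicate block, and counts over all genes there were 3 with no filter, 4 with the filter of above 0, 3 with only the groups compared, 85 with array weights and 32 without the pair of libraries of lowest weight. Array weights gave 8 histone calls of Combination against ABL503 (935 of all genes). ABL503 against Pembrolizumab gave 2 histone calls with equal sums, array weights or only the groups compared, and over all genes 301 with array weights, 100 with the filter of above 0 and 89 without the low-weight pair. The interaction over all genes gave 12 with the filter of above 0, 50 with array weights and 7 without that pair, ABL503 against Control 37 without it, and Pembrolizumab against Control 406 with only the groups compared. The cause of these moves was not tested.

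With 1 library left out, histone calls ran from 2 to 6 for Pembrolizumab, 0 to 0 for ABL503 and 12 to 24 for Combination against Control, 0 to 1 for Combination against Pembrolizumab, 2 to 7 against ABL503, and were 0 for ABL503 against Pembrolizumab and for the interaction. For Combination against ABL503 the count was 2 without ABL503 replicate 4 or Combination replicate 1 and 7 without Combination replicate 2. In the same order, calls over all genes ran from 383 to 707, 40 to 72, 958 to 1659, 6 to 49, 271 to 752, 54 to 218 and 6 to 49.

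Replicate numbers recur across groups. The 30 same-numbered pairs of libraries correlated at -0.146 to 0.107 (median 0.0259) in their deviations from group means. The 120 pairs with different numbers correlated at -0.116 to 0.168 (median -0.00157). Of 20 libraries, 5 correlated best with one of their own number. No pairing by number was seen in these correlations, but a pairing that affects few genes was not tested. Pembrolizumab and Combination replicate 2, both high in the chromosome 13 histone sum, share a number. Replicate 2 of Control (1309 FPKM) and of ABL503 (1434 FPKM) was not the highest of its group in that sum (highest 1840 and 1679 FPKM). With the replicate block, 4, 0 and 19 histone genes passed for Pembrolizumab, ABL503 and Combination against Control (617, 60 and 1387 of all genes). For Combination, 0 passed against Pembrolizumab (17 of all genes) and 5 against ABL503 (512 of all genes).

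Unknown depth, near-identical copies and priming from poly(A) limit every histone level given.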
